A study of Mus musculus and synthetic RNA with 74 samples.

Results

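The genes described here are 9 that write, copy, protect or remove DNA methylation in the mouse: the methyltransferase genes Dnmt1, Dnmt3a and Dnmt3b, the methyltransferase cofactor genes Dnmt3l and Uhrf1, the dioxygenase genes Tet1, Tet2 and Tet3, and Dppa3. They were chosen by name, and each was listed once per stage, among 20330 genes at E2.5 and 21199 genes at E3.5. The values come from transcriptomes of single embryos, 31 collected at E2.5 (morulae) and 39 collected at E3.5 (blastocysts). All embryos came from intercrosses of mice heterozygous for a Mettl16 allele carrying a triple-stop cassette in an early exon, placed with Cas9 in B6D2F1/J zygotes, and the founders were crossed to C57BL/6JRj. Embryos of a single line were sequenced. Mettl16 encodes an RNA methyltransferase that marks Mat2a mRNA, which codes for the enzyme that makes the methyl donor S-adenosylmethionine. WT, HET and KO stand for embryos with no copy, 1 copy or only copies of the stop-cassette allele. The morulae were 5 WT, 14 HET and 12 KO embryos. Among the blastocysts 18 were WT, 9 were HET and 12 were KO. Genotypes were read from the same libraries. The females were superovulated for both stages.

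DNA methylation in mammals is placed on cytosine in CG dinucleotides. DNMT3A and DNMT3B methylate new sites, with DNMT3L as a partner that has no catalytic activity of its own, while DNMT1, brought to newly replicated DNA by UHRF1, copies the pattern to the daughter strand. TET enzymes oxidize 5-methylcytosine, which opens a route back to plain cytosine, and DPPA3 (also called STELLA or PGC7) shields methylation of the maternal genome and binds UHRF1. The preimplantation embryo is known for a wave of methylation loss, followed by the return of methylation around implantation.

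The files used give, for each gene, exon and intron, a mean normalized read count over all embryos of a stage, with the genotypes together. No value of a single embryo was used, so no mean below has an SD, no difference could be tested, and WT, HET and KO embryos were not compared. KO embryos made up 38.7% of the E2.5 embryos and 30.8% of the E3.5 embryos, and WT embryos 16.1% and 46.2%, and each stage was normalized by itself, so that stage, genotype mix and normalization cannot be told apart. In whole embryos, fewer cells of a type and less RNA per cell cannot be told apart either. The stage means summed over genes to 2.36e+07 at E2.5 and 2.71e+07 at E3.5, and the depths of single libraries were not used here. Below, a level in ppm is a gene's mean in parts per 1000000 of that sum, and a level per kb is the level in ppm divided by the length in kilobases of the gene's exons. Stage changes are log2 ratios of the level in ppm at E3.5 over E2.5, and a change is counted when it passes 2-fold.

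Mettl16, the targeted gene, had a mean of 778 normalized counts at E2.5 and 669 at E3.5, over all genotypes. Markers of the outer epithelium of the blastocyst were higher in the embryos labelled blastocysts. The summed level in ppm of 8 trophectoderm markers (Cdx2, Gata3, Krt8, Krt18, Tfap2c, Elf5, Id2 and Dppa1) was 340.2 at E2.5 and 4245 at E3.5, and 5 of the 6 with a mean of 10 or more at both stages were higher past 2-fold at E3.5. Krt18, a keratin of the outer epithelium of the blastocyst, was their most abundant gene at E3.5, at 1296 ppm. Tfap2c was lower, at 224.1 and 68.1 ppm. Of 6 inner cell mass markers, 2 were higher, 1 was lower and 3 stayed within 2-fold, with a median change of 0.32. The counts of both marker lists stand beside 31.3% of all genes higher and 16.6% lower past 2-fold. Nanog (log2 2.71) and Sox2 (log2 3.39) were higher at E3.5 and Pou5f1 was lower (log2 -1.56).

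Of the 9 genes, 5 were higher past 2-fold at E3.5 and 0 were lower past 2-fold. Over the 11774 genes with a mean of 10 or more at both stages, 31.3% were higher and 16.6% were lower. The median change of those genes was 0.34 on the log2 scale, with quartiles of -0.55 and 1.27. The 5 genes were Uhrf1, Tet2, Dnmt3l, Dnmt3b and Tet1. Dnmt1, Dnmt3a, Tet3 and Dppa3 stayed within 2-fold. The median change of the 9 genes was 1.11. The dioxygenase gene Tet1 passed 2-fold narrowly, and its change was 0.93 under a scaling by the median gene, which lowers every change by 0.18.

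**Figure D1:**
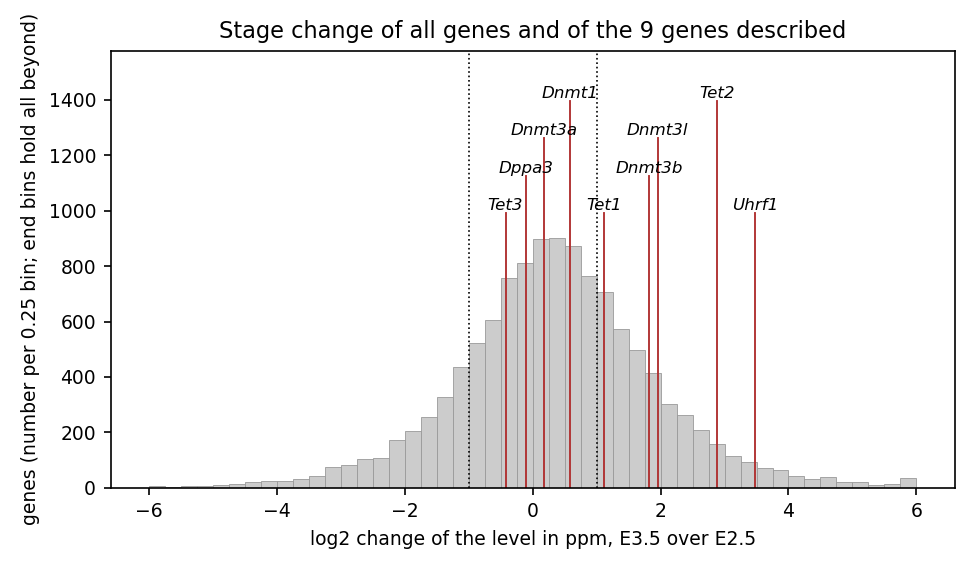
Histogram of the log2 change of the level in ppm from E2.5 to E3.5 for the 11774 genes with a mean of 10 or more at both stages (bars, bins of 0.25, with the end bins holding all genes beyond), and the 9 genes as red lines whose heights only separate the names. Dotted lines mark a 2-fold change, and Uhrf1, Tet2, Dnmt3l, Dnmt3b and Tet1 lie to the right of the upper line.

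By level per kb, Dppa3 stood first at both stages, at 5910 and 5495. At E2.5 it was followed by Dnmt3b (12.0), Dnmt3l (10.2), Tet1 (6.87), Dnmt1 (4.39), Dnmt3a (3.71), Tet2 (3.37), Uhrf1 (1.90) and Tet3 (0.573). At E3.5 the order after Dppa3 was Dnmt3b (42.2), Dnmt3l (39.6), Tet2 (24.97), Uhrf1 (21.2), Tet1 (14.9), Dnmt1 (6.60), Dnmt3a (4.18) and Tet3 (0.427). Tet2 and Uhrf1 had thus moved past Tet1, Dnmt1 and Dnmt3a. The order of some neighbours depended on the measure. With summed exon rows Dnmt3l stood above Dnmt3b at both stages (12.2 and 45.9 against 11.97 and 37.4), as it did per kb of the longest transcript (14.98 and 58.1 against 11.97 and 42.2), and with summed exon rows Dnmt1 (6.01) stood above Tet1 (4.31) at E2.5. Which neighbours in these orders differ beyond the spread between embryos could not be assessed.

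**Figure D2:**
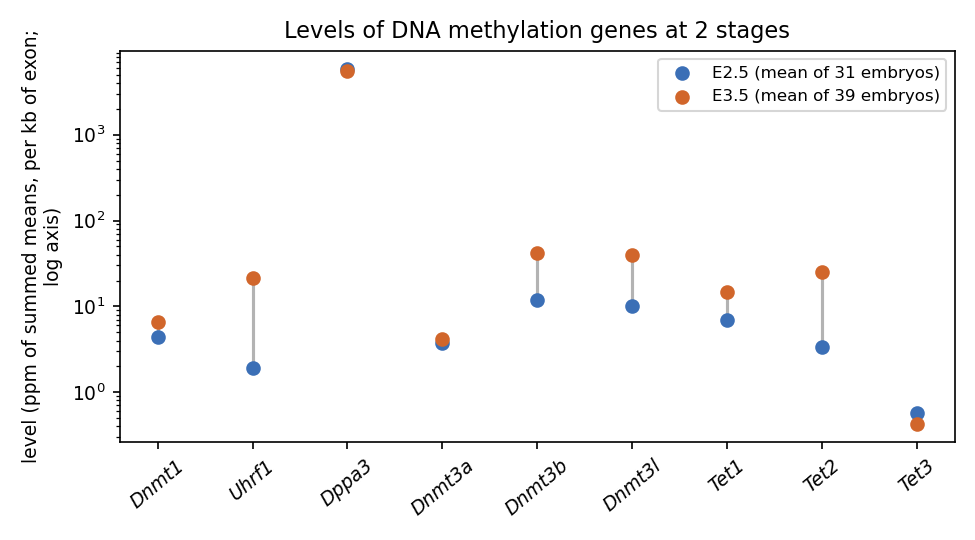
Level of each gene, in ppm of the stage's summed means per kb of exon, on a log axis, at E2.5 (blue, mean of 31 embryos) and E3.5 (orange, mean of 39 embryos), with no error bars since the means carry no spread. Dppa3 lies far above the other genes, and the blue and orange points are farthest apart for Uhrf1, at 1.90 and 21.2.

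The exon values showed that reads lay closer to the 3′ ends of genes at E3.5 than at E2.5 across the transcriptome. When the exons of a gene were split in the middle of their order into a 5′ set and a 3′ set, the 5′ set held a median of 38.3% of a gene's exon reads at E2.5 and 23.7% at E3.5, over 8017 genes. The median change was -0.44 for the 5′ set and 0.53 for the 3′ set, and the change of the 3′ set exceeded that of the 5′ set by a median of 0.98 (quartiles 0.48 and 1.55). This split, and the groups of exons described below, were chosen after the values had been seen. The part of this shift in the changes of single genes was not tested, so each gene is given with both sets and, where its forms differ, by exon. Exon changes were scaled to the summed exon means of each stage, which were 4.13e+07 at E2.5 and 3.47e+07 at E3.5. A scaled log2 change of exons is therefore higher than the log2 ratio of the printed exon means.

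**Figure D3:**
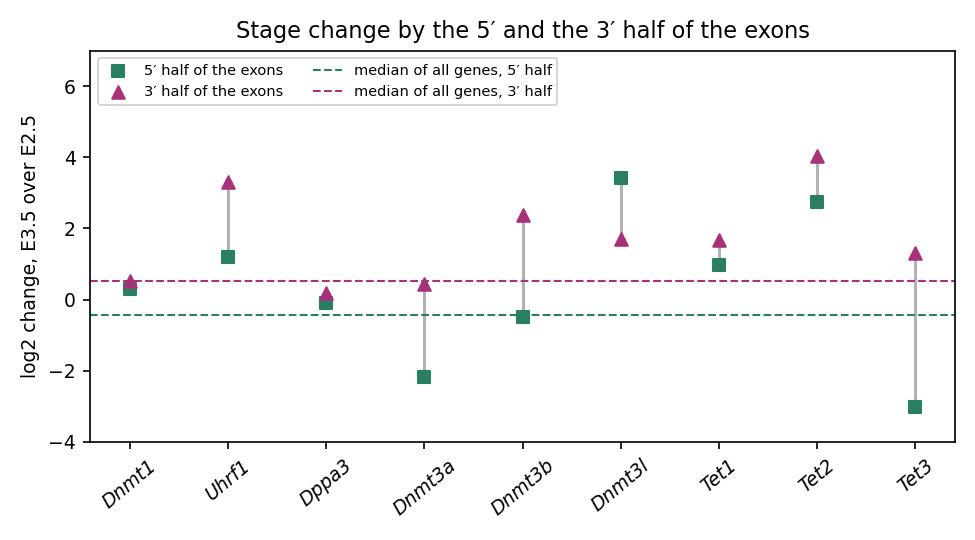
Log2 change from E2.5 to E3.5 of the summed means of the 5′ set (squares) and the 3′ set (triangles) of each gene's exons, with dashed lines at the medians of 8017 genes (-0.44 and 0.53). Tet2 and Uhrf1 were higher at E3.5 in both sets past 2-fold, Dnmt3l too but most in its 5′ set, and Dnmt3a, Dnmt3b and Tet3 had sets that moved in opposite directions, as did, by far less, Dppa3.

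Among the genes that maintain methylation, Uhrf1 was the gene with the largest stage change. It lies at chr17:56303337-56323486 on the plus strand (mm10). Its mean was 163.4 normalized counts at E2.5 and 2098 at E3.5, which is 6.94 and 77.3 ppm, an 11.1-fold higher level and a log2 change of 3.48, above that of 97.0% of the genes. The change was 1.19 in the 5′ set and 3.30 in the 3′ set, against the medians of -0.44 and 0.53 for all genes. The last of its 18 exons went from 73.2 to 1334 (log2 4.44) and the 17 exons before it together from 219.2 to 650.5 (log2 1.82). Taken singly, 17 of the 18 exons were higher at E3.5, and the exception was exon 2, an alternative first exon with means of 1.99 and 1.38.

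Dnmt1 (chr9:20907206-20959888, minus strand) had a mean of 654.4 normalized counts at E2.5 and 1133 at E3.5. This is 27.8 and 41.8 ppm, a log2 change of 0.59 that lies at the 57.4th percentile of all genes. The 5′ set changed by 0.28 and the 3′ set by 0.51, against the medians of -0.44 and 0.53 for all genes. The difference of 0.22 between the sets was larger than in 15.6% of genes. The profile along the gene was uneven: exons 4 to 13 changed by 0.54, exons 14 to 36 by -0.77 and exons 37 to 41 by 1.16. Dnmt1 has 3 known first exons, for the somatic form, the oocyte form and a form of spermatocytes. The somatic first exon (chr9:20952708-20952979) had means of 32.7 and 33.2 normalized counts. The upstream first exon of the oocyte form (chr9:20959733-20959888) had means of 0.67 and 0, and the first exon just downstream of the somatic exon (chr9:20951846-20952623) had means of 0.12 and 0.24. Nearly all reads that could be assigned to a first exon of Dnmt1 were therefore on the somatic exon at both stages.

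Dppa3 (chr6:122626424-122630271, plus strand) was among the most abundant transcripts of the embryo. Its mean was 113890 normalized counts at E2.5 and 122006 at E3.5, which ranked 13 and 17 among all genes by level in ppm. The level in ppm was 4835 and 4495, a log2 change of -0.11. Its 4 exons changed by between -0.18 and 0.37, and its exon sets by -0.09 and 0.18, so that its total changed least of the 9 genes, except under the median-gene scaling, where Dnmt3a changed by -0.01 and Dppa3 by -0.29. RefSeq lists a pseudogene copy of Dppa3, and reads shared with such a copy could not be told apart.

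The genes of new methylation fell into a pair that was higher at E3.5, Dnmt3b and Dnmt3l, and Dnmt3a, whose total level hardly differed while its exons did. Dnmt3a (chr12:3806980-3914443, plus strand) had a mean of 869.7 normalized counts at E2.5 and 1128 at E3.5, or 36.9 and 41.6 ppm, a log2 change of 0.17. It has a long form and a short form, Dnmt3a2, which starts from an internal promoter and is the main form in embryonic stem cells. The 7 exons of the long form alone held a summed mean of 113.5 at E2.5 and 9.28 at E3.5, 10.3-fold lower. The first exon of the short form (chr12:3891744-3891860) had a mean of 0.69 and 1.98, on few reads. The 17 exons shared by all forms had 1514 and 1571, a change of 0.30. Within the shared exons the change still ran from -2.09 in exon 10 to 0.92 in exon 22, and the 5′ set changed by -2.19 and the 3′ set by 0.43, a difference of 2.62 that is larger than in 97.0% of genes. The lower values of the long-form exons and the shift of reads toward the 3′ end cannot be told apart. The stretches of 250 bases before the start of each form are shown because reads of both starts were measured. They are from RefSeq on GRCm38.p6, at chr12:3806730-3806979 and chr12:3891494-3891743, both on the plus strand and written 5′ to 3′ with each CG in capitals.
Dnmt3a, long form: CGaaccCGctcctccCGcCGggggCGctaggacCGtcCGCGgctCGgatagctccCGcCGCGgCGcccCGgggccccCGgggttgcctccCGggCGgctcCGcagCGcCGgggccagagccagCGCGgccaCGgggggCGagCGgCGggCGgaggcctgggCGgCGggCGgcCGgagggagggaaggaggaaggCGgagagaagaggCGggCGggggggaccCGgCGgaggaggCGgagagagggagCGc
Dnmt3a, short form: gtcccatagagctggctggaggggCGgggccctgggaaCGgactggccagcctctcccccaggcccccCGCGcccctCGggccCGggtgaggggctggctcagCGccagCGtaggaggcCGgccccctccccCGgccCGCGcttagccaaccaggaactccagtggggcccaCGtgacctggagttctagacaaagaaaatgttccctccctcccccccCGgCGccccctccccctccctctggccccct
The stretch before the long form held 38 CG, a count that 1.88% of 32851 promoters of the same length reached, and the stretch before the short form held 15, reached by 27.3%. The median was 6. CG reads alike on both strands, and no methylation was measured here.

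Dnmt3b (chr2:153649449-153687730, plus strand) had a mean of 1219 normalized counts at E2.5 and 4953 at E3.5. The level went from 51.8 to 182.4 ppm, 3.52-fold higher (log2 1.82), above that of 85.0% of genes. The higher values lay in its 3′ exons. Exons 16 to 24 went from 971.9 to 4826 (log2 2.56), whereas exons 1 to 15 had 1165 and 798 (log2 -0.30). The 5′ set alone was lower at E3.5 by 0.49 on the log2 scale, next to a median of -0.44 for the 5′ sets of all genes, and the 3′ set was higher by 2.37. A difference between the sets of 2.86 is larger than that of 98.2% of genes. Exons 22 and 23 belong to 5 of the 9 listed Dnmt3b transcripts, and forms without them are known to lack catalytic activity. With each exon divided by its length plus a read length of 80 bases less 1 base, exon 22 stood at 39.7% of exon 21 at E2.5 and 21.3% at E3.5, and exon 23 at 63.8% and 60.4%. Exon 22, of 70 bases, was thus below the exon before it at both stages. Exon 23 belongs to the same 5 transcripts but stood at higher shares than exon 22, so these shares do not measure how much of each form was present. Exon 2, found in 4 transcripts, stood at 86.7% of its neighbours at E2.5 and 27.8% at E3.5, and exon 11, found in 5 transcripts, at 79.4% and 143.8%.

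Dnmt3l (chr10:78042287-78063622, plus strand) had a mean of 642.8 normalized counts at E2.5 and 2873 at E3.5. The level went from 27.3 to 105.9 ppm, 3.88-fold higher (log2 1.96), at the 86.9th percentile. Against the general shift, the larger change was at its 5′ end: 3.41 in the 5′ set and 1.69 in the 3′ set. Only 0.387% of genes had a difference between the sets as far in this direction. Dnmt3l has a main start region with 2 neighbouring first exons (exons 3 and 4), an internal start near its middle and a start farther upstream that is used in oocytes. Exons 3 to 11 lie before the internal start. Of these, exons 5 to 11 and the 3′ part of exon 4 also belong to the upstream form. Together exons 3 to 11 went from 155.1 to 1401 (10.7-fold higher). Exons 12 and 13, found only in forms from the internal start, had 132.6 and 82.4 (log2 -0.44). The 4 exons shared by all forms went from 1060 to 2775 (log2 1.64). The 2 upstream exons of the oocyte form were both at 0 at E2.5, and their E3.5 means were 0.28 and 0.71. In each exon before the internal start the mean was higher at E3.5, from 6.25 and 26.6 in exon 3 to 18.5 and 182.2 in exon 11. The shared exons stood well above both sets of start exons at E2.5, at 1436 normalized counts per kb against 155.9 in exons 3 to 11 and 183.9 in exons 12 and 13, and at 3760 against 1408 and 114.2 at E3.5. The 250 bases before exon 3, the more upstream of the main first exons (chr10:78049592-78049841), and before the internal start (chr10:78055085-78055334) are given in the same manner, plus strand, GRCm38.p6, because the exons after them changed unequally, by 3.42 for exons 3 to 11 and by -0.44 for exons 12 and 13, where exon 13 alone was lower (log2 -0.73) and exon 12 had means of 45.2 and 38.0, a change near 0 once scaled.
Dnmt3l, start at exon 3: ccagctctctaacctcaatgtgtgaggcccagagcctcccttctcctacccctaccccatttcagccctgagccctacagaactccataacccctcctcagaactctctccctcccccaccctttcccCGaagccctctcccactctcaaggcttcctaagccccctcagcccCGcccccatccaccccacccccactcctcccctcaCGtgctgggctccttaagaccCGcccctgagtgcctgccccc
Dnmt3l, internal start: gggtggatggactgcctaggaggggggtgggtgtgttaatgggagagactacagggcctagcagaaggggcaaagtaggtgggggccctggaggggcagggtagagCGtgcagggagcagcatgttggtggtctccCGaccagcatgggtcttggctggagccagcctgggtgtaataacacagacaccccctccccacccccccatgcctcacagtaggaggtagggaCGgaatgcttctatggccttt
They hold 4 and 3 CG, below the promoter median of 6, and far below the 38 before the Dnmt3a long form. At least as many are held by 62.2% and 71.0% of promoters.

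**Figure D4:**
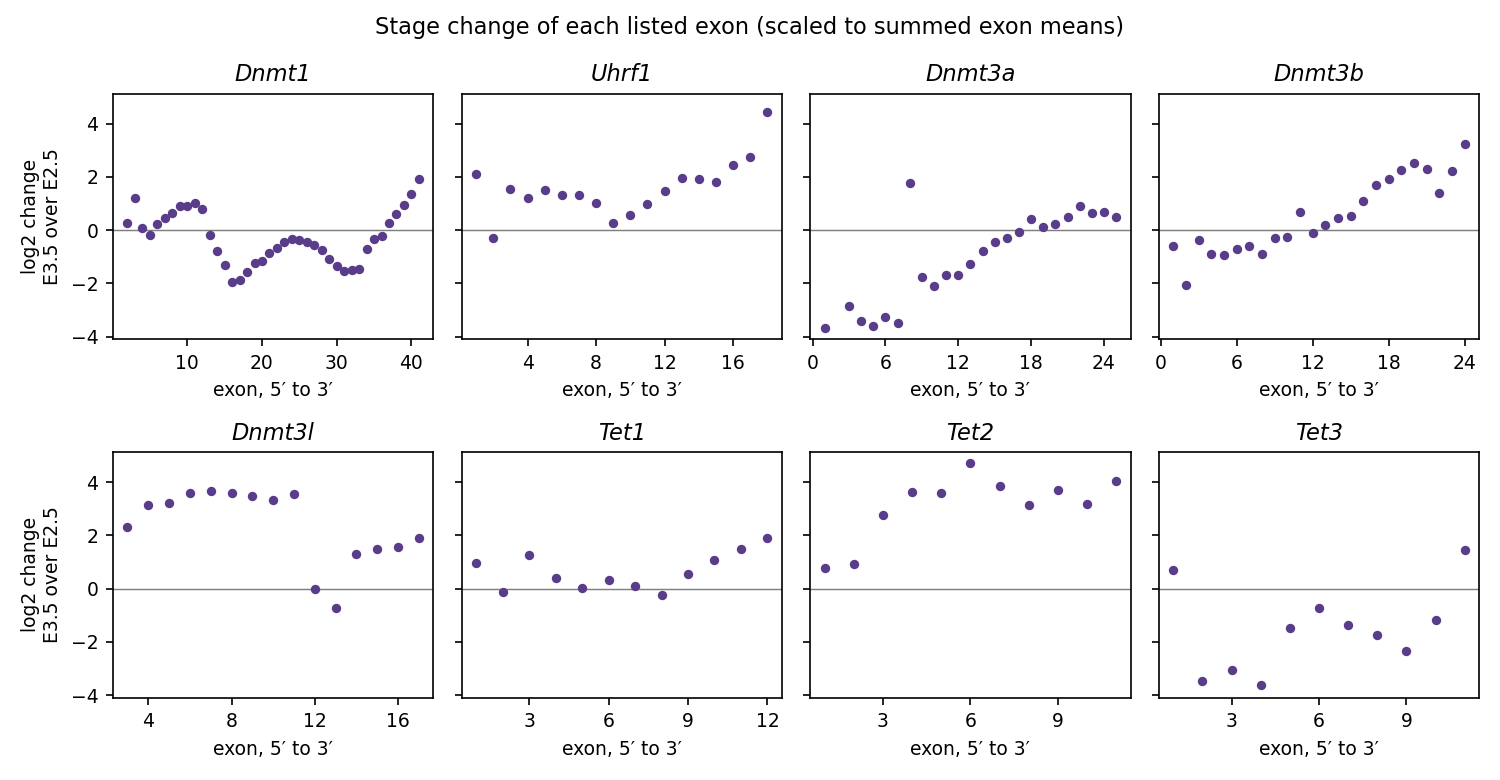
Log2 change from E2.5 to E3.5 of each exon, numbered from the 5′ end, for 8 genes, scaled to the summed exon means of each stage. Exons with a mean of 0 at either stage have no point. Dnmt3a and Dnmt3b climb from below 0 to above 0, Dnmt3l drops between exon 11 and exon 12, and all 11 exons of Tet2 lie above 0. The high point of Dnmt3a at exon 8 rests on means of 0.69 and 1.98.

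Of the TET dioxygenase genes, Tet1 and Tet2 were higher past 2-fold at E3.5 and Tet3 stayed within 2-fold. Tet2 (chr3:133463677-133544390, minus strand) had a mean of 729.1 normalized counts at E2.5 and 6222 at E3.5, or 30.9 and 229.2 ppm. This 7.41-fold higher level (log2 2.89) exceeded the change of 94.7% of genes. It was present in both exon sets, at 2.74 and 4.04, and all of its 11 exons were higher at E3.5. Exons 1 and 2 together had 49.7 and 76.3 (log2 0.87), and exons 3 to 11 had 750.3 and 6032 (log2 3.26). The 250 bases before its start held 51 CG, a number reached by 0.067% of promoters.

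Tet1 (chr10:62804570-62880014, minus strand) was the most abundant of the 3 TET genes at E2.5, with a mean of 2280 normalized counts, and had 5677 at E3.5. Its level was 96.8 and 209.1 ppm, 2.16-fold higher (log2 1.11). The change was 0.96 in the 5′ set and 1.66 in the 3′ set. The last exon, which holds most of the transcript's length, went from 806.0 to 2560 (log2 1.92), and exons 1 to 11 from 1699 to 2777 (log2 0.96). By level per kb Tet1 stood above Tet2 at E2.5 (6.87 and 3.37) and below it at E3.5 (14.9 and 24.97).

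Tet3, the form known from the oocyte and zygote, was the lowest of the 9 genes at both stages. Tet3 (chr6:83362373-83441678, minus strand) had a mean of 147.3 normalized counts at E2.5 and 126.5 at E3.5, or 6.25 and 4.66 ppm, a log2 change of -0.43. Its exons went in opposite directions. Exons 2 and 3 together had 98.1 and 9.77 (8.46-fold lower), exons 4 to 10 had 6.58 and 2.02 (log2 -1.46), and the last exon had 41.2 and 93.7 (log2 1.44). The 5′ set changed by -3.01 and the 3′ set by 1.30, a difference of 4.31 that was larger than that of 99.9% of genes. At E3.5 most Tet3 reads thus lay in the last exon alone, and exons 4 to 10, each under 2 normalized counts at both stages, were near the limit of detection.

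Intron reads were few next to exon reads. Mean counts per kb of intron were a median of 1.25% of those per kb of exon at E2.5 and 2.07% at E3.5 over 11121 genes, and the ratio was higher at E3.5 in 7 of the 9 genes and in 74.7% of all genes. Over introns that overlap no exon row it was higher in 7 of the 9 genes and in 77.7% of all genes. Nearly all intron rows begin at the base after an exon, although the methods describe introns shortened at both ends. The ratios may therefore include reads that cross a splice site. Dppa3 had the lowest ratios, 0.026% and 0.017%. Dnmt1 followed at 0.41% and 0.69%. Tet2 lay above the median at both stages, at 3.67% and 4.52%. Tet3 went from 1.45% to 16.8%, beside its low exon level. Dnmt3l went from 2.30% to 0.90%, but introns of Dnmt3l that overlap no exon row had 0.29% and 0.59%, as intron rows of its long forms span the exons of its internal start.

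The other genes of the pathway were taken from lists of known partners and are counted beside the 31.3% of all genes that were higher and the 16.6% that were lower past 2-fold at E3.5. Of 13 partners of maintenance and targeting, 2 were higher and 2 lower, with a median change of -0.08. The higher ones were Uhrf2 (log2 2.31), the paralogue of Uhrf1, and Pcna (log2 1.36), the sliding clamp of replication. The lower ones were Hdac1 (log2 -2.06), a histone deacetylase that went from 829.5 to 198.7 ppm, and Cdca7 (log2 -1.48), a partner of the remodeller HELLS. Hells itself changed by -0.17. Trim28, the corepressor that holds methylation at imprinted loci, was high per kb at both stages, at 163.4 and 188.2, and its zinc finger partner Zfp57 had 3.86 and 7.25.

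Of 16 genes of base excision and modified base handling, 12 had a mean of 10 or more at both stages, with 1 higher, 1 lower and a median of 0.11. Gadd45g was higher (log2 2.46) and Xrcc1, a scaffold of single-strand repair, was lower (log2 -2.75). Apex1, the abasic site nuclease, had the highest level per kb, at 435.8 and 256.1, followed by Parp1, a sensor of strand breaks, at 94.8 and 65.7. Tdg, the glycosylase that removes oxidized 5-methylcytosine, had a mean of 1.31 normalized counts at E2.5 and 2215 at E3.5, and falls outside the count because of its low E2.5 mean. The summed exon rows of Tdg were low at E2.5 too, with a log2 change of 8.59. Of 6 genes of the families of methylated CG readers, 3 passed the minimum, and 2 of them were higher at E3.5. These were Mbd2 (log2 3.29) and Mbd1 (log2 2.45). Mbd3, whose mammalian protein does not bind methylated CG selectively, had the highest level per kb of this list, at 20.4 and 21.5.

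Of 5 TET partners and suppliers of the cosubstrate, 4 passed the minimum, and 3 were higher at E3.5. Cxxc5, a CG-binding partner of TET2, changed by 3.72, Idh1, which makes 2-oxoglutarate, by 1.28, and Ogt, the sugar transferase that binds TET proteins, by 1.01. Ogt thus passed 2-fold narrowly, and would not pass it under the median-gene scaling, which lowers every change by the same amount. The mitochondrial Idh2 changed by 0.09. Of 6 genes of methyl donor supply, 5 passed the minimum, with 1 higher and 2 lower. Mat2a, which makes S-adenosylmethionine, was lower at E3.5 (1233 and 171.8 ppm, log2 -2.84), as was its regulatory partner Mat2b (log2 -1.49). Ahcy, which clears the product of methylation, was higher (log2 1.82). Mat2a mRNA is a known target of the enzyme that Mettl16 encodes. KO embryos were 38.7% of the E2.5 embryos and 30.8% of the E3.5 embryos, and WT embryos 16.1% and 46.2%. The part of the genotype mix in the Mat2a change was not tested.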

How the data were processed

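Single-embryo Smart-seq2 libraries (polyA-primed, paired-end, not strand-specific, so antisense reads cannot be told apart) were processed by the authors. Per the labels and methods, they estimated transcript counts on RefSeq (mm10) with Salmon 0.7.2, summed these to genes, and counted reads on exons and introns with STAR and featureCounts. The signal as deposited by the authors is a mean of counts divided by DESeq2 1.18.1 size factors (R 3.4.3) over all embryos of a stage, each stage normalized by itself. The same tables hold the authors' own comparisons between genotypes (log2 fold changes and adjusted p-values), which were not used here. The in vitro methylation table was not used here.

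With Python 3.11.15, numpy 2.4.6 and pandas 2.3.3, stage means were scaled to parts per 1000000 of their sum (ppm), divided by exon length, and compared as log2 ratios, counted past 2-fold over genes with a mean of 10 or more at both stages. Overlapping exon rows were merged to the longest. The steps were tested on simulated data. 0 columns of samples were left unmapped. RefSeq promoters were matched by symbol for 8 of the 9 genes (15 windows, of which 4 are printed). A gene of the list of methylated CG readers is not reported here. The members and lists were chosen with earlier results of these data known. All 9 members were named, with the 2 highest genes per kb and up to 4 genes past 2-fold of each pathway list, and counts with the most abundant genes for markers. Hells, Zfp57, Tdg, Tfap2c and the inner cell mass markers were named after their values were seen. Alternatives were another scaling, exon sums, a pseudocount of 1 ppm, other minimums, other length measures and, added after seeing the data, the 5′ or 3′ exons alone and an exon length corrected for read overlap.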

Additional observations from a re-analysis of the deposited data

How the results depend on the processing

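A value was taken as unmoved when it stayed within 1.5-fold. Of the 18 levels per kb (9 genes at 2 stages), 10 were above the 75th percentile of all listed genes, and 6 when ranked only among genes with a mean of 10 or more. The count of 5 genes higher past 2-fold at E3.5 was 4 with the median-gene scaling, where Tet1 fell to 0.93, was 5 with summed exons or a pseudocount, and was 3 with the 5′ exons and 6 with the 3′ exons alone. The count of 0 genes lower past 2-fold became 2 with the 5′ exons alone (Dnmt3a and Tet3, at -2.19 and -3.01) and was 0 in the other 4 alternatives. No share of all genes past 2-fold is given beside the counts in these alternatives. The median change of 8017 genes was -0.44 for the 5′ set of exons and 0.53 for the 3′ set. The part of this general shift in the counts with the 5′ or 3′ exons alone was not tested. With the 5′ exons alone the change of Dnmt3b turned to -0.49. Directions differed too for genes within 2-fold: Dnmt3a (-0.01 with the median-gene scaling), Tet3 (1.30 with the 3′ exons) and Dppa3 (0.03 with summed exons, 0.18 with the 3′ exons). An exon under 10% of its gene's median exon occurred in 3 genes, and in 6 against the length-weighted mean exon. The exons counted include alternative first exons of Dnmt1, Dnmt3a and Dnmt3l with few or no reads. No share over all genes is given beside this count either. The count of 7 genes with a higher intron to exon ratio at E3.5 was 7 in both other measures, but over introns that overlap no exon row Dnmt3l joined them (0.29% and 0.59%) and Dnmt3a left them (1.92% and 1.88%). The share of all genes higher past 2-fold was 33.6% with no minimum and 24.3% with a minimum mean of 100. Leaving out single embryos was not run, since the means are over all embryos of a stage. No paired analysis was possible because no value of a single embryo was used and no result comes from a test. The spread between embryos and the effect of depth on low means, such as those of first exons, are unknown.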

Other observations

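Of 8 oocyte and polar body markers, the 4 with a mean of 10 or more at both stages were lower past 2-fold at E3.5, beside 16.6% of all genes. The median change of these 4 was -3.52. The summed level of all 8 was 94.3 ppm at E2.5 and 6.10 at E3.5. Zp3, a gene of the egg coat, was the most abundant of them, at 67.4 and 3.83 ppm. Dppa3, also stored in the oocyte, changed by -0.11. Of 8 cumulus and granulosa markers, 7 were listed, with a summed level of 0.22 and 0.28 ppm, and Ptx3 was not listed. Of 6 blood and uterine markers, the summed level was 8.18 and 0.68 ppm. At E2.5 most of it was from Ltf, a gene of the uterine lining, with a mean of 129.1 normalized counts at E2.5 and 0.036 at E3.5. At E3.5 most was from Hba-a1, a globin gene of red blood cells, which had means of 49.6 and 12.0. Ptprc, a marker of white blood cells, had 0.32 and 1.34. The part of these in the levels of the 9 genes was not tested.

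Of 5 primitive endoderm markers, 4 passed the minimum, with 2 higher and 1 lower, beside 31.3% and 16.6% of all genes. Pdgfra was higher (log2 3.86) and Gata4 lower (log2 -2.53), and Gata6 was the most abundant, at 151.5 and 135.4 ppm. Of 6 reference transcripts, Gapdh was higher at E3.5 (log2 4.35) and Hprt lower (log2 -1.11), while Actb changed by 0.32. Ppia, H2afz and Eef1a1 changed by 0.99, 0.99 and 0.66, and the median change of the 6 was 0.82.

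The genes whose 2 stage means lay nearest to each member, by distance in log2 level in ppm, are given with no reading of shared function, since 2 values are few. For Dnmt1 they were Knstrn, Cenph and Pole2, for Dnmt3a Ncapd3, Cpsf1 and Rad54b, for Dnmt3b Ssbp1, Omd and Atp5k, and for Dnmt3l Pigyl, Limk2 and Gemin6. For Uhrf1 they were Efr3a, Ube2l6 and Lrp10, for Tet1 Dusp14, Ppp2ca and Ppih, for Tet2 Akap12, Ndufa6 and Dynlt1b, and for Tet3 A730008H23Rik, Fbxo16 and Ankrd9. For Dppa3 they were Rpl4, Npm1 and Map1lc3b, at distances from 0.12 to 0.54, since few genes are as abundant.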
